A study of Mus musculus with 6 samples.

Results

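The thoracic aorta of wild-type (WT) mice given angiotensin II (Ang-II) was compared with that of WT mice given saline, which uses 3 of the 6 bead arrays of the study. The WT mice were of the C57 Bl/6 background, 12 weeks old, and carried osmotic minipumps for 14 days that released 0.9% saline alone (1 array) or 1.25 ug/kg/min of Ang-II in that saline (2 arrays). The other 3 arrays, used only to set the WT difference beside, hold littermates of the same background with the CaMKII inhibitor peptide CaMKIIN expressed in smooth muscle alone (TG, SM-CaMKIIN), given saline (1 array) or Ang-II (2 arrays) in the same way. The labels describe 5 mice per group and RNA pooled by group, while the titles call both Ang-II arrays biological replicates. The sources do not tie single mice to single arrays, so p-values here measure only the spread between arrays, which may be technical, and each genotype's single saline array has to be given the spread seen between Ang-II arrays.

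Values are normalized log2 signals, of which 1 unit is a doubling. Of 45281 probes, 16749 were detected (detection p under 0.01) on at least 2 arrays and were tested with limma, and a probe is said to have risen or fallen at a Benjamini-Hochberg adjusted p under 0.05. A gene is given by its brightest kept probe, which left 9837 genes. Differences are the mean of both Ang-II arrays minus the saline array, with their standard error (SE). A fold written as "at least" is a lower bound for a gene whose dimmer group was not well above background, and 292 of the risen and 91 of the fallen probes are of that kind. The 6 arrays detected between 15393 and 16075 probes each, with a median of 41 to 43 beads per probe. Precision is limited throughout by how few arrays there are.

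Ang-II is the effector peptide of the renin-angiotensin system. Through the AT1 receptor it constricts arteries, and under long infusion the arterial wall is known to thicken, to deposit collagen and to take up monocytes that become macrophages. The media of the aorta consists of smooth muscle cells between elastic sheets, the endothelium lines the lumen, and fibroblasts and resident macrophages lie in the adventitia. In mice the thoracic aorta is embedded in fat with features of brown fat, so a dissected vessel can carry fat, blood and neighbouring tissue in amounts that differ between samples. In whole tissue, fewer cells of a type and less RNA per cell cannot be told apart.

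The tissue label was set against markers of the vessel wall. Acta2 and Myh11, the smooth muscle actin and myosin heavy chain, read 15.02 and 14.22 on the WT saline array, near the top of the scale. Pecam1, an adhesion molecule of endothelium, read 11.02 there, and Adipoq, the fat cell hormone adiponectin, read 10.70. Agtr1a, which encodes the AT1 receptor form most used by mouse vessels, was low at 6.07 under saline and 6.69 and 6.53 under Ang-II, a difference that did not pass (0.54 ± 0.23, adjusted p = 0.194).

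After Ang-II, 1063 probes rose (6.35%) and 455 fell (2.72%). By gene, 599 rose (6.09%) and 259 fell (2.63%), and the median difference over all 9837 genes was -0.047. Quantile normalization without background correction gave 55.8% rises among its calls, against 70% here. The rises were mostly moderate, with 400 genes at a log2 difference of at least 1, 51 of at least 2 and 4 of at least 3, and 144, 24 and 3 genes fell by as much. All calls rest on the same WT saline array. The TG saline array had no part in the WT difference. It lay on the saline side of both WT Ang-II arrays for 97.8% of the risen probes (36.3% of all kept probes lay so). For the fallen ones the share was 94.3% (45.3% of all). The called probes were picked for a gap between the WT Ang-II arrays and WT saline, so these shares follow in part from that choice. TG Ang-II arrays can lie on that side too, as for Sspn (12.18 and 12.42, against 4.39 and 4.43 on WT Ang-II). The part of Ang-II in these shares was not tested. With either WT Ang-II array left out, which sets 1 array against 1, 197 or 170 probes rose and 57 or 54 fell.

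Transcripts of fat and of red blood cells were higher on both Ang-II arrays, and those of heart muscle were lower. Of 20 measured genes of fat cells in general, 14 rose and 0 fell, with a median difference of 1.55. Of 14 brown fat genes 8 rose and 0 fell (median 1.19), and of 8 red cell genes 5 rose and 0 fell (median 1.86). Of 32 heart muscle genes 16 fell and 2 rose (median -0.76). By quantile normalization without background correction the brown fat median was 0.67, with 8 risen and 1 fallen, and the heart median -0.48. These 70 genes are treated as signs of what tissue was sampled and are set apart from the other 9767 genes, of which 573 rose (5.87%) and 243 fell (2.49%). Slc27a2, a fatty acid transport and activation enzyme of brown fat, read 6.64 under saline and 9.13 and 9.21 under Ang-II, a rise of 5.79-fold (log2 2.53 ± 0.16, adjusted p = 0.00352). Gpd1, which supplies glycerol phosphate for triglycerides, read 7.66 and then 9.76 and 9.66, a rise of 4.15-fold (2.05 ± 0.15, adjusted p = 0.00405). Alas2, which starts haem synthesis in red cell precursors, read 7.33 and then 9.98 and 9.85 (2.59 ± 0.16, adjusted p = 0.00352). In each case both Ang-II arrays lay far above the saline array and close to each other, as genes that pass tend to.

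The WT saline array was low for many of these genes. For 14 of the 20 general fat genes, 9 of the 14 brown fat genes and 6 of the 8 red cell genes, WT saline was the lowest of all 6 arrays. The TG saline array stood above WT saline by a median of 0.60 over the fat genes and 0.82 over the red cell genes, although both groups received saline. Gpd1 read 8.73 on TG saline and 8.56 and 8.55 on TG Ang-II, and Slc27a2 read 8.20, 7.92 and 8.02. With both saline arrays as the control, 11 of the fat genes and 5 of the red cell genes rose, with medians of 1.15 and 1.45. With WT Ang-II array 1 or 2 left out, 9 or 7 fat genes and 5 or 5 red cell genes rose.

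The heart muscle genes separated the genotypes under Ang-II and not under saline. Their mean read 7.84 on WT saline and 7.60 on TG saline. It was 6.98 and 6.95 on WT Ang-II, and 9.97 and 9.94 on TG Ang-II. Csrp3, a protein of the muscle Z disc, read 7.38 under WT saline and 4.70 and 4.91 under WT Ang-II, a fall of at least 3.52-fold (adjusted p = 0.00381). On TG saline it read 6.93, and on TG Ang-II 11.10 and 10.97. Tnnc1, cardiac troponin C, read 7.13 and then 5.57 and 5.58 in WT, and 7.12 and then 10.90 and 10.90 in TG. Myh6, the alpha myosin heavy chain of heart, went from 7.01 to 4.79 and 5.30 in WT by its brighter probe and from 7.01 to 10.79 and 10.81 in TG. For 24 of the 32 heart genes the TG difference exceeded the WT difference by the limma test of that contrast, which 1.19% of all probes passed in either direction. Myl7, the atrial myosin light chain, differed in another way, since it read 7.78 on WT saline and between 5.73 and 6.48 on the other 5 arrays. Cpt1b and Cox7a1, the 2 members that rose, are also brown fat genes. Without array 1 or 2, 10 or 9 heart genes fell.

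**Figure D1:**
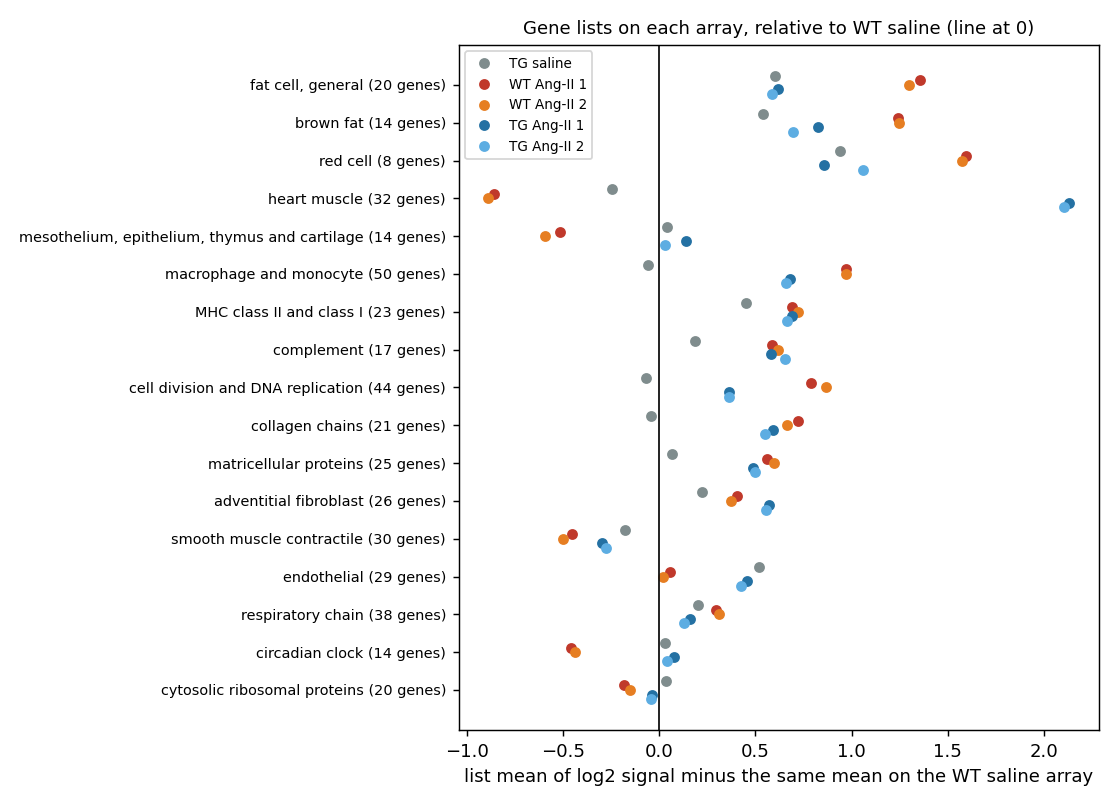
Mean log2 signal of 17 gene lists on 5 arrays, each minus the same mean on the WT saline array (vertical line at 0), with 1 point per array. The WT Ang-II arrays stand about 1.3 above WT saline for general fat genes while TG saline already stands 0.60 above it, and the heart muscle list lies below 0 on both WT Ang-II arrays and above 2 on both TG Ang-II arrays.

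Among markers of other neighbouring tissues more genes fell than rose after Ang-II. Of 14 measured genes of mesothelium, epithelium, thymus and cartilage, 5 fell (35.7%) and 1 rose (7.14%), with a median of -0.95. Of all genes 2.63% fell and 6.09% rose. Upk3b, a uroplakin of mesothelium, read 10.10 under saline and 8.82 and 8.66 under Ang-II, a fall of 2.57-fold (-1.36 ± 0.19, adjusted p = 0.0152), and each of its 3 probes fell. Krt8 and Krt18, paired keratins of simple epithelia, fell 1.99-fold and 1.98-fold (adjusted p = 0.0398 and 0.0277). Scgb1a1, the club cell secretoglobin of airways, fell at least 3.14-fold (adjusted p = 0.00918), and Rag1, the recombinase of developing lymphocytes, at least 2.34-fold (adjusted p = 0.0113). Sox9, a transcription factor of cartilage, was the member that rose (0.81 ± 0.17, adjusted p = 0.0438). Col2a1, another cartilage gene of the list, was counted by its brighter probe, which did not pass. Its other kept probe rose by 1.90, to 6.52 and 6.44 from a WT saline value of 4.58. That value lies below the lowest detected there (5.63). There were 3 lymphocyte transcripts among the 30 largest falls outside the make-up lists. Trbv13-2, a T cell receptor beta segment, read 7.57 and then 5.07 and 5.11 and fell at least 4.02-fold (adjusted p = 0.00352), Cd27 at least 2.35-fold (adjusted p = 0.0108) and Lat, an adaptor of T cell receptor signalling, at least 2.48-fold (adjusted p = 0.0191). Cd3d, a T cell receptor subunit, fell at least 1.5-fold (adjusted p = 0.0099), while Prf1, the pore protein of killer cells, rose 2.53-fold (adjusted p = 0.0408). The list of T, B and NK cell genes as a whole did not fall, as 3 of its 6 measured members rose (Prf1, Thy1 and Rac2, of which fibroblasts also carry Thy1 and myeloid cells Rac2) and 1 fell (Cd3d), with a median of 0.35. By quantile normalization that median was 0.18 and the mesothelial and epithelial one -0.43, and none of the 4 T, B and NK calls passed without array 1 or 2. The part of these tissues in other results was not tested. None of the 5 falls, nor the rise, in the mesothelial and epithelial list passed with WT Ang-II array 1 or 2 left out.

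Collagen genes rose and none fell. Of 21 measured chains 8 rose, against 6.09% of all genes, and the median difference was 0.51, against -0.047 for all genes. The risen chains belong to the fibrillar collagens (Col1a1, Col1a2, Col3a1 and Col5a2), the network collagens of vessel walls (Col8a1 and Col8a2) and the fibril-associated ones (Col14a1 and Col16a1). Col5a2, which helps set the width of collagen fibrils, read 8.49 under saline and 10.13 and 10.15 under Ang-II, a rise of 3.13-fold (1.65 ± 0.16, adjusted p = 0.00648), and both of its probes rose. Col3a1, the fibrillar collagen of elastic tissues, read 12.54 and then 13.44 and 13.70, a rise of 2.04-fold (1.03 ± 0.18, adjusted p = 0.0262). Col1a2, the partner chain of Col1a1, rose 2.29-fold (1.19 ± 0.17, adjusted p = 0.0151). Col8a2 rose 2.15-fold by 1 of its 2 probes (adjusted p = 0.0146). In TG 6 chains rose and 0 fell, and for 0 chains did the 2 genotypes' differences pass the test against each other. The share of all genes that rose in TG is not given, so this and later TG counts cannot be set against it. When array 1 or 2 was left out, 3 or 2 chains rose.

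Among the 24 collagen-modifying enzymes 3 rose (12.5%, against 6.09% of all genes) and 0 fell (median 0.09). Lox, the oxidase that crosslinks collagen and elastin, read 12.47 under saline and 13.86 and 13.71 under Ang-II, a rise of 2.49-fold (1.32 ± 0.16, adjusted p = 0.0103). Bmp1, which trims procollagen ends, rose 1.67-fold (adjusted p = 0.0466) and Plod2, a lysyl hydroxylase, 1.71-fold (adjusted p = 0.0427). Of 13 elastic fibre genes 2 rose (15.4%). These were Mfap2, a glycoprotein of microfibrils, at 9.28 and then 11.04 and 11.15 (1.82 ± 0.16, adjusted p = 0.00503), and Eln, elastin itself, at 14.04 and then 14.88 and 15.04 (0.92 ± 0.16, adjusted p = 0.0279). The modifying enzymes lost all 3 calls with either WT Ang-II array left out, and Mfap2 kept its call.

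Matricellular proteins, which sit in the matrix without building fibres, were higher too. Of 25 matricellular genes 8 rose (32%, against 6.09% of all genes) and 0 fell (median 0.35). Of these 8, 5 were detected on all 3 WT arrays. Where a probe had to be so detected, 7 of 21 tested rose and the median was 0.27. Thbs1, thrombospondin 1, read 5.39 under saline and 7.30 and 6.89 under Ang-II, a rise of at least 2.77-fold (adjusted p = 0.0108). Ccn4, a Wnt-induced member of the CCN family, read 8.45 and then 10.43 and 10.46, a rise of 2.00 ± 0.19 on the log2 scale (adjusted p = 0.00539) shown by both probes. Thbs2, Matn4, Sparc, Tnc and Vtn, which encode thrombospondin 2, matrilin 4, osteonectin, tenascin C and vitronectin, rose by between 0.75 (Tnc) and 1.41 (Matn4) on the log2 scale. Cthrc1 had the largest difference of the list, from a WT saline value of 4.71 that lies below the lowest detected there (5.63). It read 5.26 on TG saline, 8.72 and 8.74 on WT Ang-II and 8.16 and 8.17 on TG Ang-II. With array 1 or 2 left out, 3 or 3 of the 8 kept a call.

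Of 30 proteoglycan and hyaluronan genes 5 rose (16.7%, against 6.09% of all genes) and 0 fell (median 0.12). Lum and Fmod, small leucine-rich proteoglycans that bind collagen, rose 2.18-fold (adjusted p = 0.0148) and 1.76-fold (adjusted p = 0.0309), and the proteoglycans Gpc3 and Sdc1 rose 1.86-fold and, as a bound, at least 2.19-fold (adjusted p = 0.0248 and 0.0333). Cemip, a protein of hyaluronan breakdown, read 4.58 on WT saline, below the lowest value detected there (5.63), and 8.26 and 8.25 on WT Ang-II. In TG it read 4.53 and then 5.82 and 5.84. Its TG difference was smaller than its WT difference by 2.38 (SE 0.21, adjusted p = 0.014), the only passing difference of that kind among the matrix lists. Of 33 matrix proteases and inhibitors 5 rose (15.2%) and 1 fell (3.03%, near the 2.63% of all genes), with a median of 0.18. Mmp14 and Mmp2, a membrane collagenase and the gelatinase it activates, rose 2.86-fold and 2.46-fold (adjusted p = 0.0233 and 0.0109). Mmp9, the gelatinase of leukocytes, read 6.83 and then 5.94 and 5.67, a fall of 2.04-fold (adjusted p = 0.0309). Adamts4, an aggrecanase, rose at least 1.94-fold (adjusted p = 0.0202) and Serpinf1, a secreted serpin, by 0.85 ± 0.15 on the log2 scale (adjusted p = 0.0292). Without array 1 or 2, 1 or 1 of the proteoglycan rises and 1 or 1 of the protease rises (Cemip and Adamts12) kept a call, and the fall of Mmp9 did not.

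Some markers of adventitial fibroblasts rose. Of 26 measured genes 6 rose (23.1%, against 6.09% of all genes) and 0 fell (median 0.46). Fap, a serine protease of activated fibroblasts, read 7.21 under saline and 9.04 and 9.22 under Ang-II, a rise of 3.78-fold (1.92 ± 0.20, adjusted p = 0.00766). Dpt, dermatopontin, rose 1.73-fold (adjusted p = 0.043) and Thy1, a surface protein also carried by T cells, 1.69-fold (adjusted p = 0.0387). When array 1 or 2 was left out, 1 or 0 of the 6 rose.

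**Figure D2:**
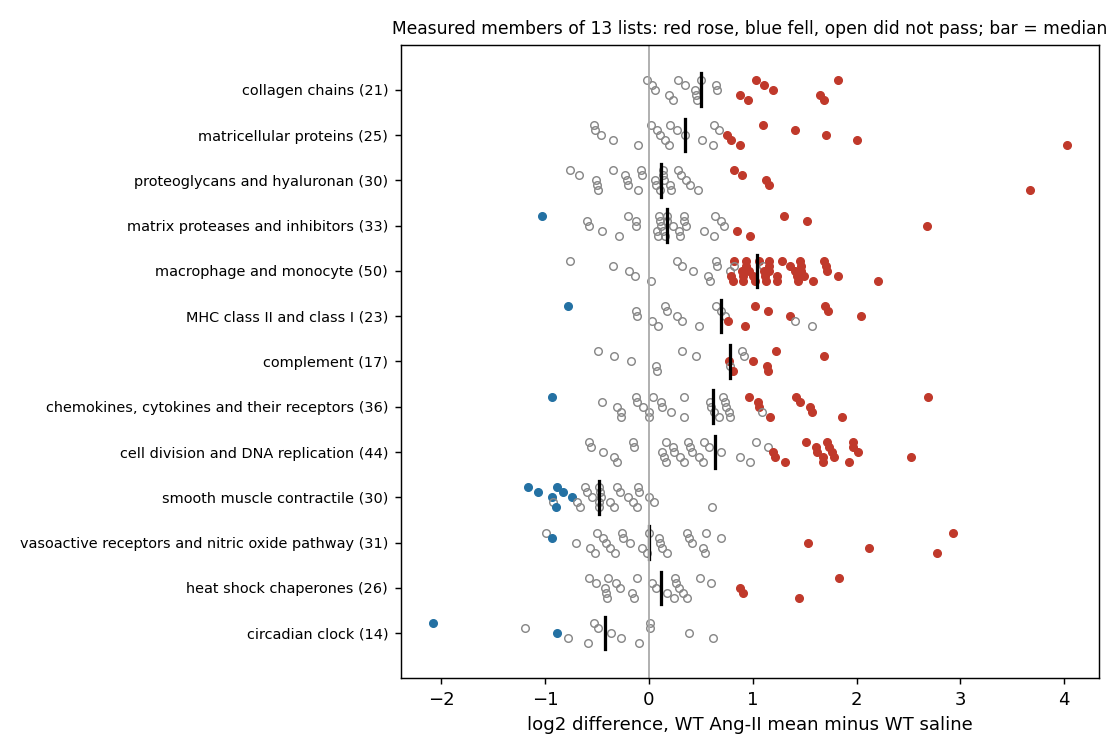
Each point is 1 measured gene of 13 lists at its log2 difference between WT Ang-II and WT saline, filled red where it rose, filled blue where it fell and open where it did not pass, with the number measured beside the list's name and a bar at the list's median. The macrophage median stands at 1.04 and the contractile median at -0.48, and the other medians lie between -0.43 (clock) and 0.78 (complement).

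Macrophage and monocyte genes rose in the largest number of any list here. Of 50 measured genes 35 rose (70%, against 6.09% of all genes) and 0 fell. On both Ang-II arrays 45 were higher, and the median difference was 1.04. Cx3cr1, the fractalkine receptor of monocytes and resident macrophages, read 5.33 under saline and 7.56 and 7.51 under Ang-II, a rise of at least 3.74-fold (adjusted p = 0.0159). Mpeg1, the pore protein perforin 2 of macrophages, read 7.98 and then 9.67 and 9.72, a rise of 3.28-fold (1.71 ± 0.15, adjusted p = 0.00503). Adgre1, which encodes F4/80, read 8.79 and then 10.16 and 10.35 and rose 2.77-fold (1.47 ± 0.17, adjusted p = 0.00899) by all 3 of its probes. The saline array lay below both Ang-II arrays by more than 1 unit for each of these. The Fc receptors Fcgr4 and Fcgr2b and the beta-glucan receptor Clec7a rose 2.99-fold, 2.81-fold and, as a bound, at least 2.59-fold (adjusted p = 0.0108, 0.0068 and 0.00964).

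In TG 21 of the 50 rose and 0 fell with a median of 0.80. TG saline and WT saline were close over this list, with TG saline lower by a median of 0.08, and with both as control 38 rose. Mpeg1 read 7.80 on TG saline and 9.59 and 9.55 on TG Ang-II. Vsig4, a complement receptor of tissue-resident macrophages, was the only member whose differences parted between genotypes. It read 6.48 and then 8.08 and 8.30 in WT, and 6.99 and then 6.97 and 6.95 in TG (TG minus WT -1.74, SE 0.24, adjusted p = 0.0414). Few single calls outlasted the loss of an array, as 4 or 3 of the 50 rose with WT Ang-II array 1 or 2 left out.

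Genes of antigen presentation by MHC class II were higher after Ang-II. Of 23 measured genes of both classes 8 rose (34.8%) and 1 fell (4.35%), against 6.09% and 2.63% of all genes (median 0.70). H2-Eb1, a class II beta chain, read 9.32 under saline and 11.13 and 10.90 under Ang-II, a rise of 3.24-fold (1.69 ± 0.17, adjusted p = 0.00687). Its partner chain gene H2-Aa, shown here although it did not pass, read 9.61 and then 10.68 and 11.34 (1.41 ± 0.33, adjusted p = 0.0552). H2-DMb1, H2-DMb2 and H2-DMa, whose products load peptides onto class II molecules, rose 2.57-fold, 2.21-fold and 2.03-fold (adjusted p = 0.013, 0.0127 and 0.0407). Ifi30, a lysosomal thiol reductase that prepares antigens, rose 1.90-fold (adjusted p = 0.0248). The member that fell was Tapbp, tapasin of the class I loading complex (-0.78 ± 0.16, adjusted p = 0.0436), by 1 of its 2 probes. TG saline stood above WT saline for 22 of the 23 genes, by a median of 0.47. With both saline arrays as control the median was 0.34 and again 8 rose and 1 fell, and with array 1 or 2 left out 3 or 3 rose and 0 fell.

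Class II genes share upstream elements, one of which is the Y box, a reversed CCAAT box bound by NF-Y, so promoters of both chains are shown. RefSeq promoters of build GRCm38.p6 were searched over the 250 bases before the start on both strands for CTGATTGG, which 3.83% of 32851 promoters hold. The stretches below are the last 100 bases before the start of H2-Aa (chr17:34287824-34287923, minus strand) and H2-Eb1 (chr17:34305767-34305866, plus strand), with the match in capitals. Of the 8 risen members 6 had a promoter in the table and 2 of them held the match (H2-Eb1 and Psmb9, a proteasome subunit named for its match alone).
H2-Aa: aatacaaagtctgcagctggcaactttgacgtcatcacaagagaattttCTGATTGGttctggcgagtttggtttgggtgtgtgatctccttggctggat
H2-Eb1: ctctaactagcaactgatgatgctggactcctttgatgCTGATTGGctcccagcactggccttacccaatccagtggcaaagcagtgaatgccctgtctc
A match of letters is a description of the sequence and says nothing about binding in these samples.

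Complement genes were higher after Ang-II. Of 17 measured genes 7 rose (41.2%, against 6.09% of all genes) and 0 fell (median 0.78). C4a and C4b, near-identical copies of complement component 4 whose probes may share signal, read 10.68 and 10.58 under saline and rose 2.33-fold (adjusted p = 0.0109) and 2.19-fold (adjusted p = 0.0166). C1qb and C1qc, chains of the recognition protein C1q that macrophages secrete, rose 2.00-fold and 1.75-fold (adjusted p = 0.0359 and 0.0415). C1s2, a C1s protease gene, rose by 1.68 ± 0.24 on the log2 scale (adjusted p = 0.0153), Cfb, factor B of the alternative pathway, 2.21-fold (adjusted p = 0.029), and C2, its classical counterpart, 1.71-fold (adjusted p = 0.04). With array 1 or 2 left out, 1 or 0 of the 7 rose.

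Of 36 measured chemokines, cytokines and receptors 10 rose (27.8%) and 1 fell (2.78%), against 6.09% and 2.63% of all genes. The median was 0.61, and 10 members were at background in the dimmer group. Among the 25 members detected on all 3 WT arrays 5 rose and the median was 0.21, and by quantile normalization the median of the list was 0.28, so its count and median rest in part on members kept through the Ang-II arrays. Il1b, interleukin 1 beta, read 5.18 under saline and 6.95 and 7.12 under Ang-II, a rise of at least 2.65-fold (adjusted p = 0.00766), and its receptor gene Il1r1 rose at least 1.24-fold (adjusted p = 0.043). The receptor genes Il6ra and Il10ra rose by bounds of at least 2.25-fold and at least 2.52-fold (adjusted p = 0.013 and 0.00766). Among the ligands, Ccl7, which attracts monocytes, rose 2.74-fold (adjusted p = 0.0236), Cxcl9, which attracts activated T cells, 2.67-fold (adjusted p = 0.0127), and Cxcl12, a chemokine of stromal cells, 2.25-fold (adjusted p = 0.014) by each of its 3 probes. Ccl7 and Cxcl9 did not pass in TG, where they read 6.29 and 6.87 under saline and between 5.76 and 6.88 under Ang-II, and the test between genotypes did not pass (adjusted p = 0.0966 and 0.0715). Without array 1 or 2, 4 or 1 of the 10 rose.

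Neutrophil, mast cell and interferon-stimulated genes gave few calls. Of 11 neutrophil and mast cell genes 0 rose and 0 fell by limma (4 were higher at an unadjusted p under 0.05, and by quantile normalization 1 rose). The neutrophil granule genes Lcn2 and Ltf differed by 0.95 ± 0.28 (adjusted p = 0.0935) and 0.63 ± 0.35 (adjusted p = 0.303), and the mast cell chymase Cma1 by 0.56 ± 0.19 (adjusted p = 0.129). Of 27 interferon-stimulated genes 3 rose (11.1%) and 1 fell (3.7%), against 6.09% and 2.63% of all genes. Their median of -0.04 lay at the median of all genes. Rsad2, the antiviral enzyme viperin, read 7.03 and then 8.26 and 8.48 (1.34 ± 0.17, adjusted p = 0.0119), Irf8, a transcription factor of the monocyte lineage, rose 2.02-fold (adjusted p = 0.0183) and Ifi27l2a 1.76-fold (adjusted p = 0.0369). Mx2, an antiviral GTPase, fell at least 1.40-fold (adjusted p = 0.04). None of these 4 calls held with array 1 or 2 left out.

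A few genes of lysosomes and of actin remodelling rose. Of 33 cathepsin and lysosome genes 4 rose (12.1%, against 6.09% of all genes) and 0 fell (median 0.37). Laptm5, a lysosomal protein of blood cells, read 11.18 under saline and 12.40 and 12.29 under Ang-II (1.16 ± 0.16, adjusted p = 0.0132). Ctsa, the protective protein cathepsin A, rose 1.93-fold (adjusted p = 0.0305), and Gpnmb, a glycoprotein of lipid-laden macrophages, 1.87-fold (adjusted p = 0.0398). Of 38 actin, tubulin and annexin genes 3 rose (7.89%, near the share of all genes) and 0 fell (median 0.03). Lgals3, galectin 3, rose 2.23-fold (adjusted p = 0.0124), Fscn1, the actin bundler fascin, 2.49-fold (adjusted p = 0.0124), and Lcp1, the leukocyte bundler L-plastin, 1.73-fold (adjusted p = 0.0421). When array 1 or 2 was left out, 1 or 1 of the lysosome genes (Ctsk) and 0 of the actin genes rose.

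Genes of cell division rose. Of 44 measured genes 17 rose (38.6%, against 6.09% of all genes) and 0 fell, with a median of 0.64. In the dimmer group 8 of the 44 were at background. Pbk, a mitotic kinase, read 5.78 under saline and 8.26 and 8.35 under Ang-II, a rise of 5.75-fold (2.52 ± 0.18, adjusted p = 0.00391). Cenpa, the histone H3 variant of centromeres, read 8.15 and then 10.13 and 10.19, a rise of 4.03-fold (2.01 ± 0.17, adjusted p = 0.00503). Prc1, which bundles microtubules of the mitotic midzone, read 7.72 and then 9.67 and 9.70, a rise of 3.92-fold (1.97 ± 0.15, adjusted p = 0.00422). These 3 were detected on the saline array, Pbk only just above the lowest detected value there of 5.63. Top2a and Cdk1, the DNA topoisomerase and kinase of dividing cells, were not, and rose at least 2.07-fold and at least 2.38-fold (adjusted p = 0.00927 and 0.0205). Cdkn3, Cdca3 and Nusap1, also genes of mitosis, rose 3.80-fold, 3.43-fold and 3.40-fold (adjusted p = 0.00766, 0.0139 and 0.00861).

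In TG 11 of the 44 rose and 0 fell, at a median of 0.47. Pbk read 5.53 on TG saline and 7.02 and 6.76 on TG Ang-II, a smaller difference than in WT, and Prc1 read 7.10 and then 8.97 and 8.86, much like WT. For 0 of the 44 did the difference between genotypes pass. With array 1 or 2 left out, 9 or 4 rose. Where a probe had to be detected on all 3 WT arrays, 12 of 35 tested rose and the median was 0.48 (0.40 over all 44 by quantile normalization), while 5.3% of all 8797 genes so detected rose and 2.1% fell.

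Many genes of mitosis carry a cell cycle homology region near their start, an element of late cell cycle genes, so 3 of their promoters are shown. TTTGAA was searched in the same way and occurs in 16% of all promoters. Of the 17 risen genes 14 had a promoter in the table and 6 of these held it (Cdc20, Cdk1, Cdkn3, Kif22, Prc1 and Top2a). The last 80 bases before the start are given for Cdk1 (chr10:69352913-69352992, minus strand), Prc1 (chr7:80294396-80294475, plus strand) and Top2a (chr11:99024190-99024269, minus strand), with matches on either strand in capitals.
Cdk1: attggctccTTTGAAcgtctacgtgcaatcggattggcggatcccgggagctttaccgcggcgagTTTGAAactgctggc
Prc1: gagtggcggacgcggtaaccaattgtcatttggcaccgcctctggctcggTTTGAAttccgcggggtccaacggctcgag
Top2a: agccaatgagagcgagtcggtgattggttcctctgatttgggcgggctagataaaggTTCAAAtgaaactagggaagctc
All 3 carry the letters within the 30 bases before the start, and Cdk1 carries them again further upstream. Only promoters that hold the letters were shown, so their presence in all 3 follows from that choice. The 16% is a share of promoters, while a gene was counted if any of its promoters held the letters. Binding in these samples was not tested.

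Contractile genes of smooth muscle were lower, in small steps from very high levels. Of 30 measured genes 7 fell (23.3%, against 2.63% of all genes) and 0 rose. On both Ang-II arrays 26 were lower, and the median was -0.48. Lmod1, a nucleator of actin filaments in smooth muscle, read 12.41 under saline and 11.55 and 11.39 under Ang-II, a fall of 1.92-fold (-0.94 ± 0.16, adjusted p = 0.0276). Flna, the actin crosslinker filamin A, read 14.00 and then 13.10 and 13.13 (-0.89 ± 0.15, adjusted p = 0.0249). Des, the intermediate filament desmin, Kcnmb1, the smooth muscle subunit of the large calcium-activated potassium channel, and Tpm2, a tropomyosin, fell 1.86-fold, 1.77-fold and 1.67-fold (adjusted p = 0.0329, 0.0393 and 0.0433). Myh11 read 14.22 and then 13.77 and 13.71, which did not pass (-0.48 ± 0.16, adjusted p = 0.12). Acta2 was level by its brightest probe (0.05 ± 0.15, adjusted p = 0.858) and lower by 0.27 when its 5 probes were averaged (adjusted p = 0.249). Lmod1 and Des did not pass in TG, at 12.25 then 12.22 and 12.13, and at 10.67 then 10.57 and 10.69, but for 0 of the 30 did the test between genotypes pass. Without array 1 or 2, 0 of the 30 fell, and by quantile normalization without background correction 16 fell and 1 rose.

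Single channel and regulator genes of smooth muscle changed, and the rises were near the share of all genes. Of 27 calcium handling and potassium channel genes 2 rose (7.41%, against 6.09% of all genes) and 3 fell (11.1%, against 2.63%), and of 22 regulators 1 rose and 1 fell (4.55% each). Kcnab1, a beta subunit of voltage-gated potassium channels, read 12.13 under saline and 10.43 and 10.53 under Ang-II, a fall of 3.14-fold (-1.65 ± 0.15, adjusted p = 0.00562) by both probes. In TG it read 11.95 and then 11.14 and 11.23. Kcnk3, the acid-sensitive channel TASK-1, and Kcna5, the voltage-gated channel Kv1.5, rose 2.67-fold and at least 1.94-fold (adjusted p = 0.0133 and 0.0205). Pln, phospholamban, which restrains the calcium pump, is shared with heart muscle and read 7.81 and then 6.48 and 6.25. Of 22 smooth muscle regulators Heyl, a Notch target, fell 1.68-fold (adjusted p = 0.0469), Prrx1, a mesenchymal homeobox factor, rose 1.72-fold (adjusted p = 0.044), and the coactivator gene Myocd did not pass (0.60 ± 0.17, adjusted p = 0.0801). When array 1 or 2 was left out, 0 of the channel genes rose, 2 or 1 fell, and neither regulator passed.

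Receptors of vasoactive peptides gave some of the larger single changes. Of 31 measured genes of this group 4 rose (12.9%) and 1 fell (3.23%), against 6.09% and 2.63% of all genes. The median was 0.00. Of the 4, 2 were detected on all 3 WT arrays. Aplnr, the apelin receptor, read 4.98 under saline and 7.64 and 7.87 under Ang-II, a rise of at least 4.36-fold (adjusted p = 0.00521). Ednrb, the endothelin B receptor, read 8.53 and then 10.05 and 10.08, a rise of 2.89-fold (1.53 ± 0.15, adjusted p = 0.0067) by both probes, and in TG it went from 8.70 to 10.21 and 10.12. Ptger3, a prostaglandin E2 receptor, read 5.43 and then 7.58 and 7.51 in WT, but 6.63 and then 6.58 and 6.36 in TG (TG minus WT -2.27, SE 0.24, adjusted p = 0.0225). Ddah1, which removes an inhibitor of nitric oxide synthase, read 6.71 on WT saline, 7.06 on TG saline, 9.57 and 9.69 on WT Ang-II and 9.46 and 9.46 on TG Ang-II. Gucy1a1, a subunit of the nitric oxide receptor guanylyl cyclase, fell 1.91-fold (-0.93 ± 0.16, adjusted p = 0.0262) from a level of 13.36, by 2 of its 4 probes. With array 1 or 2 left out, 4 or 3 genes of the group rose and Gucy1a1 did not pass.

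Few endothelial and adhesion genes passed. Of 29 endothelial genes 3 rose (10.3%, against 6.09% of all genes) and 1 fell (3.45%, against 2.63%), with a median of -0.03. Robo4, a guidance receptor of endothelium, rose 2.44-fold (adjusted p = 0.0113), Cdh5, VE-cadherin, 2.06-fold by 1 of its 2 probes (adjusted p = 0.019), and Pdpn, podoplanin of lymphatic vessels and fibroblasts, 1.67-fold (adjusted p = 0.0393). Mmrn1, a multimerin, read 7.53 and then 6.61 and 6.55, a fall of 1.92-fold (adjusted p = 0.0214), while in TG it went from 7.13 to 8.42 and 8.39 (TG minus WT 2.22, SE 0.21, adjusted p = 0.018). Pecam1 read 11.02 and then 10.35 and 10.08 (-0.80 ± 0.18, adjusted p = 0.0517). TG saline stood above WT saline for 23 of the 29 by a median of 0.51, and with both as control 2 rose, 3 fell and the median was -0.32. Of 24 adhesion genes 2 rose (8.33%, against 6.09% of all genes) and 2 fell (8.33%, against 2.63%). Itga11, a collagen receptor of fibroblasts, rose 2.33-fold (adjusted p = 0.0127). Itga5 and Itga7, receptors for fibronectin and laminin, fell 1.89-fold and 1.87-fold (adjusted p = 0.0264 and 0.0367). Itga5 rose in TG from 9.44 to 10.16 and 10.30, and the genotypes differed (TG minus WT 1.70, SE 0.22, adjusted p = 0.0368). Without array 1 or 2, the endothelial and adhesion calls named here were lost, and Itga11 differed by 1.29 or 1.16.

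**Figure D3:**
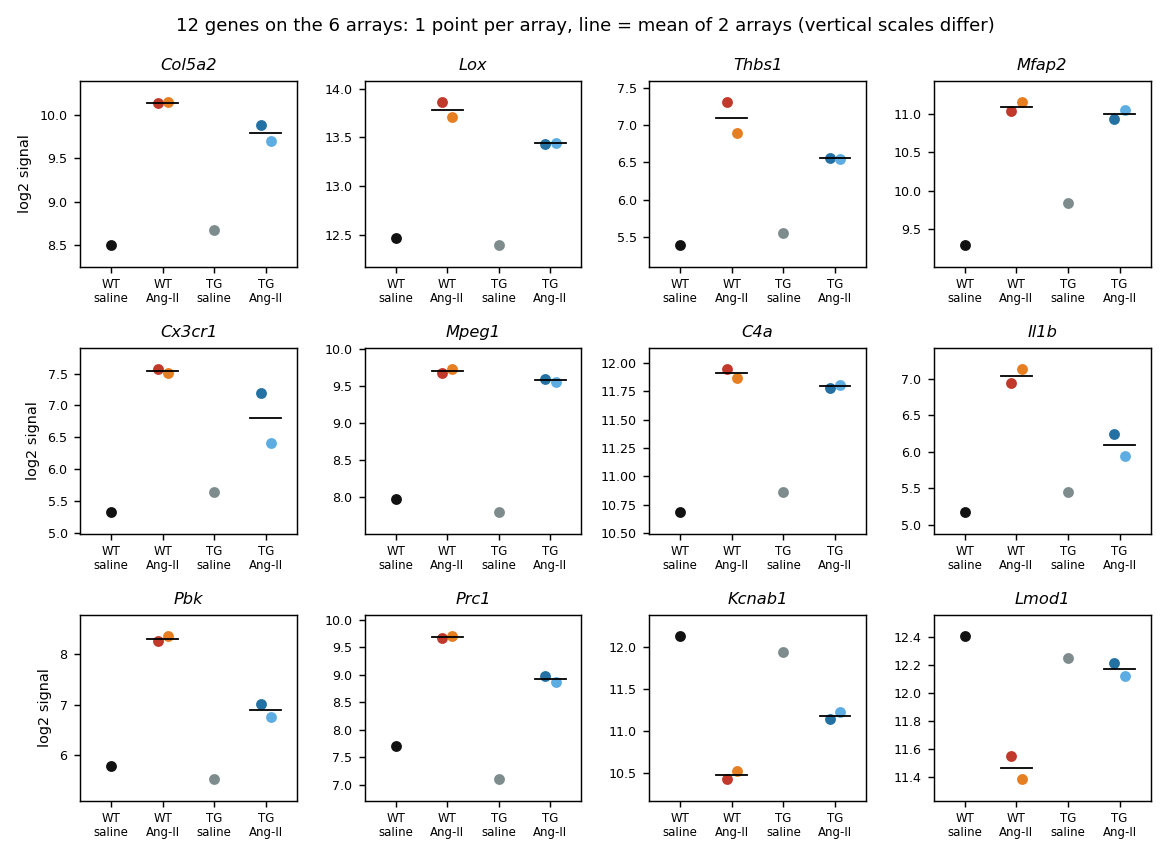
Log2 signal of 12 genes on the 6 arrays, with 1 point per array, a line at the mean of 2 arrays and a separate vertical scale for each gene. In WT both Ang-II points of each gene lie close together and away from the saline point, which follows in part from choosing genes that passed. Lmod1 is low on the WT Ang-II arrays alone, at 11.55 and 11.39.

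Growth factor genes changed singly. Of 45 growth factor and Wnt genes 4 rose (8.89%) and 1 fell (2.22%), with a median of 0.15. These shares were near those of all genes (6.09% and 2.63%). Igf1, insulin-like growth factor 1, read 9.15 under saline and 10.76 and 10.83 under Ang-II, a rise of 3.13-fold (1.65 ± 0.17, adjusted p = 0.0067), and in TG went from 9.44 to 10.82 and 10.63. Angptl4, an inhibitor of lipoprotein lipase that fat also makes, rose 2.53-fold (adjusted p = 0.00918), Vegfa, the vascular endothelial growth factor, 2.21-fold (adjusted p = 0.0165), and Mdk, midkine, 2.06-fold (adjusted p = 0.0179). Fgf1, acidic fibroblast growth factor, read 10.82 and then 9.67 and 9.65, a fall of 2.23-fold (adjusted p = 0.0131). Of 28 genes of the TGF-beta and BMP pathway Fst, the activin antagonist follistatin, alone rose, from 6.10 to 8.13 and 8.40 (2.16 ± 0.19, adjusted p = 0.00517). Tgfb2, a TGF-beta ligand, and Bmper, a BMP regulator, did not pass (0.78 ± 0.20, adjusted p = 0.0717, and 0.81 ± 0.19, adjusted p = 0.0546). The median of the pathway was 0.00, and the 1 rise is 3.57% of its genes, under the 6.09% of all genes. When array 1 or 2 was left out, 1 or 0 of the growth factor genes rose and Fst kept its call.

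Few heat shock genes rose. Of 26 heat shock chaperones 4 rose (15.4%, against 6.09% of all genes) and 0 fell, at a median of 0.12. Hspa1b, an inducible HSP70, read 8.90 under saline and 10.48 and 10.97 under Ang-II, a rise of 3.55-fold (1.83 ± 0.24, adjusted p = 0.0127) by 1 of its 2 probes. Its copy Hspa1a read 11.72 and then 13.18 and 13.16. Dnajb1, an HSP40 partner, read 12.19 and then 13.12 and 13.08 (0.91 ± 0.15, adjusted p = 0.0234), and Chordc1, a cochaperone of HSP90, rose 1.84-fold (adjusted p = 0.03). In TG the direction was the other way for Dnajb1, which fell from 12.19 to 11.30 and 11.33 (TG minus WT -1.79, SE 0.21, adjusted p = 0.0279), and Hspa1a differed by -1.81 (SE 0.22, adjusted p = 0.0292). With array 1 or 2 left out, 1 or 0 of the 4 rose.

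The pair of HSP70 genes is shown by its promoters because their transcripts and upstream sequences are near copies, so that probes may read both. A heat shock element is built from inverted GAA repeats that bind HSF1, and GAANNTTC, which reads the same on both strands, occurs in 6.69% of all promoters. The last 120 bases before the start are those of Hspa1a (chr17:34972157-34972276, minus strand) and Hspa1b (chr17:34959239-34959358, minus strand), with the match in capitals.
Hspa1a: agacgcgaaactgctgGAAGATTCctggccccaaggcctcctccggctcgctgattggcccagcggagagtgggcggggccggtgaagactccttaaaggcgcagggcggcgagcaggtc
Hspa1b: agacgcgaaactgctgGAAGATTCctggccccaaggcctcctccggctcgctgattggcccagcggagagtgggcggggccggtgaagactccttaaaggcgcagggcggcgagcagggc
All 4 risen chaperone genes had a promoter in the table, and the match was found in these 2.

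Other stress programmes changed in few members. Of 28 genes of endoplasmic reticulum and amino acid stress 2 rose (7.14%, near the 6.09% of all genes). They were Asns, asparagine synthetase (0.97 ± 0.19, adjusted p = 0.0347), and Herpud1, of protein degradation at the reticulum (0.76 ± 0.16, adjusted p = 0.0416). Chac1, a glutathione-degrading enzyme, did not pass (0.98 ± 0.25, adjusted p = 0.0693). Of 23 immediate-early genes 2 rose (8.7%) and 1 fell (4.35%), against 6.09% and 2.63% of all genes. Nr4a2, a nuclear receptor, rose at least 1.70-fold (adjusted p = 0.0182) and Socs3, a feedback inhibitor of cytokine signalling, 1.69-fold (adjusted p = 0.0429). Fosb, an AP-1 subunit, fell 1.98-fold (adjusted p = 0.0378). Of 30 NADPH oxidase and antioxidant genes 6 rose (20%) and 1 fell (3.33%), with a median of 0.02. With detection required on all 3 WT arrays, 4 of 28 tested rose, 1 fell and the median was -0.03. Hmox1, haem oxygenase 1, read 6.00 and then 7.0 and 7.39, a rise of 2.29-fold (adjusted p = 0.0263). Gsta4, a glutathione transferase, rose 2.92-fold (adjusted p = 0.0185), Sod2, the mitochondrial superoxide dismutase, 1.70-fold (adjusted p = 0.0396), and Gpx3, plasma glutathione peroxidase, 1.73-fold (adjusted p = 0.0387). Nqo1, a quinone reductase, fell 1.67-fold (adjusted p = 0.0407). With both saline arrays as control 0 of the reticulum genes and 0 of the immediate-early genes rose, and with array 1 or 2 left out 0 of either rose and 1 or 1 of the oxidase and antioxidant genes (Ncf4) did.

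Genes of metabolism that fat also expresses rose in part. Of 27 cholesterol and fatty acid genes 4 rose (14.8%) and 2 fell (7.41%), against 6.09% and 2.63% of all genes (median 0.20). Elovl6, a fatty acid elongase, read 7.46 under saline and 9.59 and 9.37 under Ang-II in WT, but 8.32 and then 7.63 and 7.53 in TG (TG minus WT -2.76, SE 0.24, adjusted p = 0.014). Etfb and Cpt2, of mitochondrial fatty acid oxidation, rose 2.08-fold and 1.75-fold (adjusted p = 0.0149 and 0.0322), Insig1, a sterol sensor partner, 2.26-fold (adjusted p = 0.0483), and Msmo1, of cholesterol synthesis, fell 1.64-fold (adjusted p = 0.043). Of 38 respiratory chain genes 1 rose, Ndufa10, a complex I subunit (0.90 ± 0.17, adjusted p = 0.0364). At an unadjusted p under 0.05 there were 13 higher genes and 0 lower ones, with a list median of 0.37, and quantile normalization called 12. Cox6b1 and Sdhb, of complexes IV and II, differed by 0.64 ± 0.15 (adjusted p = 0.0555) and 0.62 ± 0.15 (adjusted p = 0.0605). WT saline was the lowest of the 6 arrays for 24 of the 38, and TG saline stood above it by a median of 0.22. Of 17 glycolysis genes Pdk4, which restrains glucose oxidation, rose 2.17-fold (adjusted p = 0.03) and Hk1, a hexokinase, fell at least 1.67-fold (adjusted p = 0.0232). Each is 5.88% of the list, and 6.09% of all genes rose and 2.63% fell. Without array 1 or 2, Elovl6 kept its call and the other genes named here, Ndufa10, Pdk4 and Hk1 among them, did not.

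Most clock genes read lower after Ang-II in WT, and few passed. Of 14 measured genes 10 were lower on both Ang-II arrays, 2 fell (14.3%, against 2.63% of all genes) and 0 rose (median -0.43). Dbp, an output gene of the clock, read 12.09 under saline and 11.19 and 11.23 under Ang-II, a fall of 1.85-fold (-0.88 ± 0.15, adjusted p = 0.0253). Npas2, a partner of the clock factor Bmal1, read 6.89 on WT saline and 4.68 and 4.93 on WT Ang-II. The latter lie below the lowest values detected on those arrays (5.58 and 5.55). On the TG arrays it read between 5.47 and 6.08, and its genotypes differed (TG minus WT 2.64, SE 0.25, adjusted p = 0.018). Ciart, a clock repressor, did not pass (-1.19 ± 0.28, adjusted p = 0.0561). The hours of dissection are not given in the sources used here. Of 20 cytosolic ribosomal protein genes 0 rose and 0 fell by limma, and at an unadjusted p under 0.05 there were 0 higher and 1 lower. When array 1 or 2 was left out, Npas2 alone of the clock genes fell.

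The largest rises outside the make-up lists fell into groups by what TG did. Of the 30 largest, which range from 2.09 to 4.02 on the log2 scale, 17 also rose in TG and 9 differed between the genotypes. Rbm47, an RNA-binding protein, read 5.64 under saline and 8.66 and 8.56 under Ang-II in WT (2.97 ± 0.15, adjusted p = 0.00262) and went from 4.61 to 8.18 and 8.12 in TG. Angptl1, a secreted angiopoietin-like protein, went from 7.53 to 10.09 and 10.08 (2.56 ± 0.16, adjusted p = 0.00358) and in TG from 8.43 to 10.21 and 10.40. C1qtnf3, Cpxm1, Adam23, Depp1, Hopx and the activin receptor gene Acvr1c rose in both genotypes too. Hopx read 4.732 on TG saline and 5.552 and 5.683 on TG Ang-II. These values lie below the lowest detected on the same arrays (5.667, 5.68 and 5.694). All of these had both WT Ang-II arrays above both saline arrays.

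The following 9 of the largest rises belong to no fixed list and are given singly. Pnpla3, a lipid droplet protein, read 6.34 on WT saline, 9.42 and 9.34 on WT Ang-II, and 8.42, 8.81 and 8.84 on the TG arrays. Clstn3, of which fat makes a form of its own, read 6.65, 9.29 and 9.5 in WT and between 8.31 and 8.61 in TG. Irs3, an insulin receptor substrate of rodent fat cells, Lncbate10, a long noncoding RNA of brown fat, and Orm1 and Apoc1, secreted plasma proteins, rose 5.94-fold, 4.67-fold, 5.55-fold and 6.29-fold in WT (adjusted p = 0.00352, 0.00405, 0.00352 and 0.00358), and for each TG differed from WT. Cd1d1, which presents lipids, rose 6.27-fold (adjusted p = 0.00381), Acaa1b, a peroxisomal thiolase, 4.89-fold (adjusted p = 0.00422) and Ffar2, a receptor of short-chain fatty acids, at least 3.14-fold (adjusted p = 0.00419). Of these 9, only Acaa1b (adjusted p = 0.052) and Ffar2 (0.0578) did not pass the test between genotypes.

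The likeness to fat was measured for each gene as Pearson's r with the mean of the general fat list over the 6 arrays, as a description with no test. Of the 9767 genes outside the make-up lists 2.56% had an r over 0.9, as did 145 of the 573 that rose (25.3%). Of these 145, 3 also rose in TG, against 214 of the other 428. The r was taken over all 6 arrays, TG included, and the fat list is nearly flat across the TG arrays, so that split follows in part from the measure. Risen genes were also chosen for being low on WT saline and high on both WT Ang-II arrays, as the fat list is, so their higher share of r over 0.9 is largely set by that choice and supports nothing. Vsig4 (r = 0.97), Ptger3 (0.99), Elovl6 (0.91), Irs3 (0.93), Ncf4 (0.95) and Cemip (0.92) were above 0.9, and Adgre1 (0.86), Mpeg1 (0.68), Col1a1 (0.77), Col3a1 (0.74), Lox (0.79), Prc1 (0.76) and Igf1 (0.74) were not. The part of sampled fat in any of these rises was not tested.

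**Figure D4:**
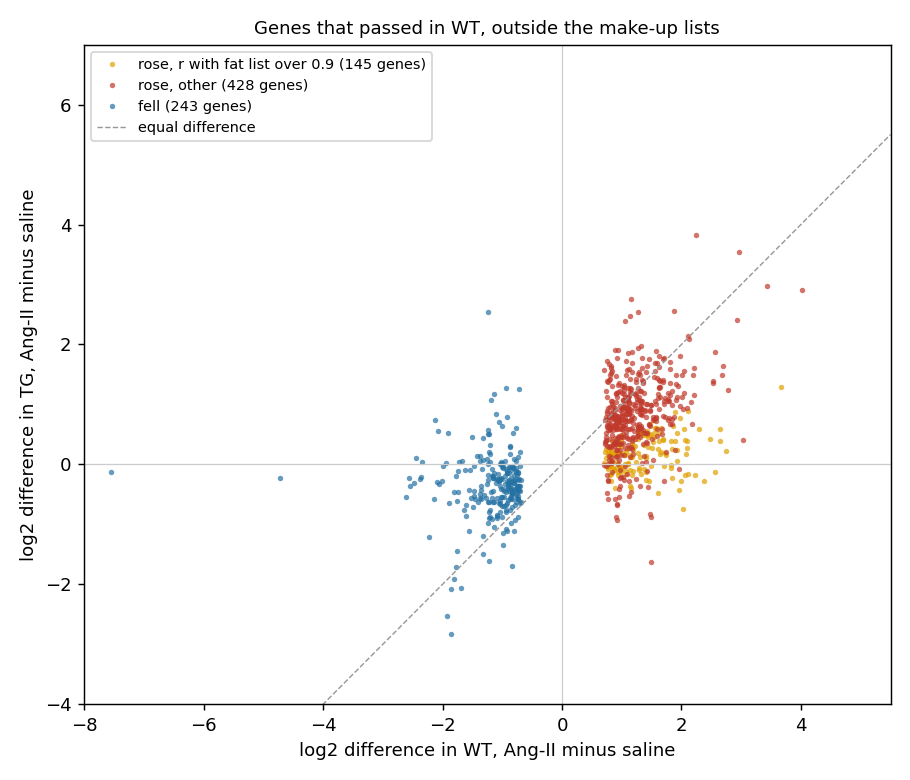
The log2 difference between Ang-II and saline in WT (horizontal) and in TG (vertical) of the genes outside the make-up lists that passed in WT, with the dashed line at equal differences. Of 573 risen genes 145 had an r over 0.9 with the fat list (yellow), and they lie around 0 on the TG axis, while the 243 fallen genes lie mostly between 0 and the dashed line.

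Of the 259 fallen genes 29 also fell in TG, and of the 599 risen ones 218 rose there. The difference of these shares was not tested. The share of all genes that passed in TG is not given here. How these and the other TG counts above compare with it is therefore not known. Serpina1b and Serpina1d are neighbouring alpha-1 antitrypsin genes of liver that are close copies and may share signal. They read 8.12 and 8.06 under saline and 6.22 and 6.19 on the first Ang-II array (-1.77 ± 0.22, adjusted p = 0.011, and -1.82 ± 0.15, adjusted p = 0.005). In TG they fell by 1.72 and by 1.91, from higher saline values. Serpina1b went there from 9.82 to 8.29 and 7.92, and Serpina1d from 9.44 to 7.52 and 7.54. Klk10, a kallikrein, fell at least 3.29-fold (adjusted p = 0.00503) and Pcnp, a nuclear protein, 3.63-fold by 2 of its 3 probes (adjusted p = 0.0257), and both fell in TG. Mup3, a major urinary protein of liver with many close copies, went from 7.78 to 5.74 and 5.39 (adjusted p = 0.00503) and from 5.99 to 4.77 and 4.78 in TG. Serpina1b and Pcnp lost their calls with either WT Ang-II array left out.

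Several of the deepest falls were lower on both WT Ang-II arrays than on all 4 other arrays. Counting probes whose WT Ang-II values both lay at least 1 unit below each other array, there were 57, in 37 named genes outside the make-up lists, and 63 probes lay that far above. These were picked for the pattern, so the counts are a description. The probes of Serpina1b and Serpina1d are among the 57, although both genes also fell in TG. Sspn read 11.97 on WT saline, 4.39 and 4.43 on WT Ang-II, and 12.43, 12.18 and 12.42 on the TG arrays. Me1 read 9.31, then 4.57 and 4.6, and between 8.78 and 9.09 in TG. Both went from a bright signal to background on the same 2 arrays, with the other 4 arrays in close agreement. Cops8, a COP9 signalosome subunit, fell 5.88-fold from 10.31 to 7.56 and 7.94 (adjusted p = 0.00426), Wdr82, a subunit of a histone methyltransferase complex, 6.08-fold (adjusted p = 0.00491), and Srpr, a subunit of the signal recognition particle receptor, 4.02-fold (adjusted p = 0.00949). Cops8, Wdr82 and Srpr stayed above background on the WT Ang-II arrays. Each of these 5 genes has 1 kept probe, and whether the sequence a probe reads was the same in all mice was not tested.

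Where such a gene had more than 1 kept probe, the probes often disagreed. There were 15 genes of this kind, heart genes included, and in 6 of them every kept probe fell. Nnmt, nicotinamide N-methyltransferase, had a probe that went from 10.18 to 6.28 and 6.10 (-3.99 ± 0.16, adjusted p = 0.00118), while its brightest probe read 10.35 and then 10.55 and 10.51 (0.17 ± 0.16, adjusted p = 0.514) and the other differed by 0.59. Rpl29, a ribosomal protein, had a probe that went from 9.22 to 4.58 and 4.62 (-4.63 ± 0.15, adjusted p = 0.000916), while the brighter one read 12.22 and then 11.32 and 11.58. Of the 5 probes of Capn2, a calpain, 2 fell, by 2.40 and by 2.18, and 3 did not pass (-0.72, -0.67 and 0.60). The probes of Rpl29 differed in size and not in direction, and those of Nnmt and Capn2 in both.

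Slc15a2, a peptide transporter, Atp2c1, a Golgi calcium pump, Supt16, a histone chaperone subunit, and Trex1, an exonuclease, also had 1 probe that fell and 1 that did not pass. Fez1, an adaptor of axonal transport, fell by both of its probes (-1.56 ± 0.15 and -1.68 ± 0.15, adjusted p = 0.00595 and 0.00516), as did Tbc1d1, a Rab GTPase-activating protein (-2.55 ± 0.17 and -2.02 ± 0.15, adjusted p = 0.00358 and 0.00401). Fez1 read 10.54 on WT saline, 8.88 and 8.83 on WT Ang-II and between 10.41 and 10.48 on the TG arrays by the brighter probe. Fam107a, Dhrs3, Lypd6, Mybphl and Cst9, with falls of between 1.94 (Cst9) and 2.15 (Lypd6) on the log2 scale, belong to the 30 largest falls as well. Which transcript forms the single probes read was not tested.

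**Figure D5:**
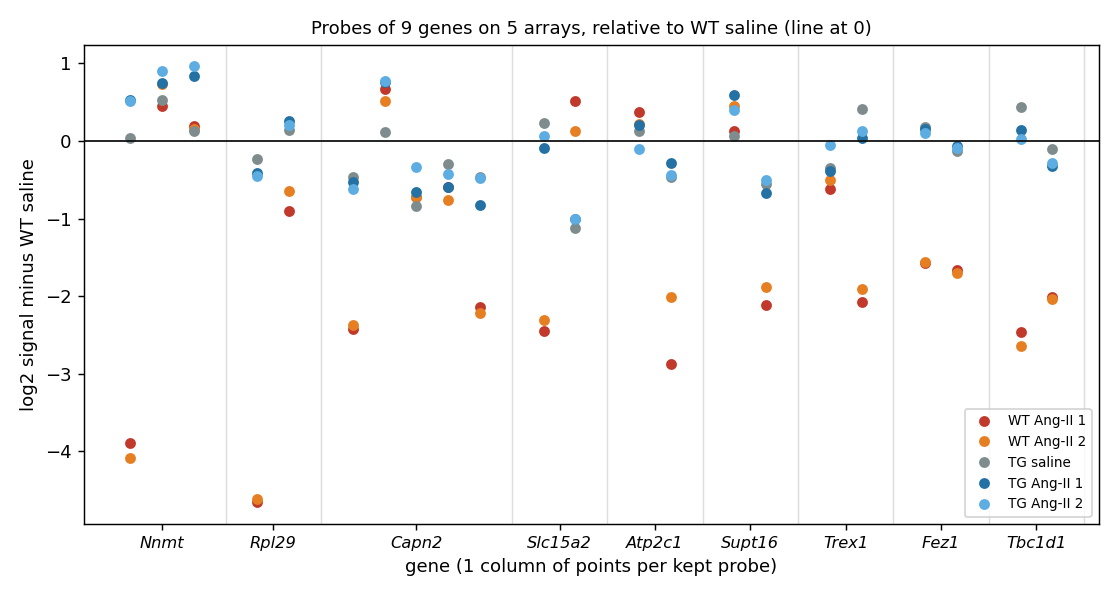
Log2 signal of each kept probe of 9 genes on 5 arrays, minus the same probe on WT saline (line at 0), with 1 column of points per probe. For Nnmt, Rpl29 and Capn2 the WT Ang-II points lie far below 0 for some probes, whose fitted differences run from -2.18 to -4.63, and nearer to 0 for others, while Fez1 and Tbc1d1 drop by both probes, and the TG points stay near 0 for most probes.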

How the data were processed

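Pooled aorta RNA was read on 6 Illumina mouse bead arrays in 4 groups. Per the submitters' processing notes, GenomeStudio 2011.1 and limma 3.22.1 were used. The deposited scanner tables give each probe's intensity and a detection p-value. The deposited series table gives log2 values, which equal limma's neqc of the deposited intensities with an offset of 16 (largest difference 5e-09 over 271686 values), and these log2 values were used.

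A probe was kept if its detection p lay under 0.01 on 2 or more arrays (16749 probes). Means of 4 groups over 6 arrays were fitted with limma 3.58.1 in R 4.3.3 (lmFit and eBayes, 2 residual degrees of freedom), with Benjamini-Hochberg adjustment over all kept probes. A gene is its kept probe with the highest mean. Probe symbols came from the platform annotation, updated through RefSeq, where 34885 probes have 1 symbol, 18 several and 10378 none. At-least folds set the bright group against the lowest signal detected. The code was tested on simulated data.

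The members and gene lists were chosen with earlier results of these data known. Genes are named from the 30 largest passing rises and the 30 largest falls outside the make-up lists, from up to 8 passing members of each list by size (up to 3 members by size where fewer than 3 passed), and from a few fixed controls and markers. Probes of the single-group falls were chosen after their values were seen. Promoters came from RefSeq, build GRCm38.p6. The sources used here name no build for the array files and give no chip positions or scan dates. Alternatives changed the normalization, offset, detection filter, variance prior, probe summary, control arrays and arrays left out.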

Additional observations from a re-analysis of the deposited data

Results flagged for a closer look

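The Ang-II difference was set against that of TG by the limma test of the contrast itself, and each gene below passed it, with adjusted p between 0.000974 and 0.0495. The values are the TG difference minus the WT difference on the log2 scale. All rest on 1 saline array per genotype.

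Genes of the fat lists and some in no fat list were below 0, which means a larger rise in WT. The values were -2.77 for Slc27a2, -2.76 for Elovl6, -2.70 for Irs3, -2.63 for Pnpla3, -2.60 for Ucp1, -2.51 for Clstn3, -2.39 for Lncbate10, -2.25 for Agpat2, -2.23 for Gpd1, -1.94 for Car3 and -1.47 for Cox8b. Red cell genes lay on the same side, with -2.66 for Slc4a1, -2.36 for Alas2, -1.69 for Hba-a1 and -1.69 for Hbb-bs.

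Other genes with a larger rise in WT were Cemip at -2.38, Ptger3 at -2.27, Apoc1 at -2.27, Orm1 at -2.06, Cd1d1 at -2.05 and Vsig4 at -1.74. The chaperone genes Hspa1a and Dnajb1 gave -1.81 and -1.79.

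Heart muscle genes were above 0, as they fell in WT while most rose in TG. The values were 7.03 for Cox6a2, 6.68 for Csrp3, 5.76 for Myh6, 5.34 for Tnnc1, 4.16 for Pln and 1.99 for Myl7, which did not pass in TG.

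Genes that fell in WT and differed in TG otherwise were Sspn at 7.43, Me1 at 4.50, Mybphl at 2.87, Npas2 at 2.64, Nudt6 at 2.38, Cops8 at 2.32, Mmrn1 at 2.22, Tbc1d1 at 2.19, Trbv13-2 at 2.17, Slc15a2 at 2.13, Supt16 at 1.97, Fam107a at 1.79, Fez1 at 1.74, Dhrs3 at 1.72, Itga5 at 1.70 and Lypd6 at 1.57. The cause of these differences was not tested.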

How the results depend on the processing

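The counts to compare with are 1063 risen and 455 fallen probes, 573 risen and 243 fallen genes outside the make-up lists (all gene counts here are of those) and 199 probes that differed between genotypes. Quantile normalization without background correction gave 1641, 1298, 957, 759 and 730. A trended, robust variance prior gave 1710, 1305, 999, 784 and 775, and no detection filter gave 563, 218, 313, 120 and 60. With an offset of 50, 912 probes and 517 genes fell and 446 probes differed between genotypes. With detection on all 6 arrays 708 probes and 394 genes fell, and with probes averaged per gene 377 genes fell. With 1 WT Ang-II array left out, the lone array is assumed to vary like the other groups, and 170 to 197 probes and 90 to 111 genes rose while 54 to 57 probes and 26 to 30 genes fell. Fewer arrays there leave fewer degrees of freedom, and the cause of the other shifts was not tested. Of 214 named genes that passed, 0 turned direction, 96 kept the call without array 1 and 81 without array 2. Among values that turned sign, Agtr1a, which did not pass, was -0.31 with both saline arrays as control, and with probes averaged per gene Acta2 was -0.27 and Nnmt -1.07. The replicate block gave 1149 risen and 493 fallen probes, 606 and 261 genes and 158 probes that differed between genotypes. The deviations of same-numbered WT and TG Ang-II arrays correlated at r = 0.115 over probes, and the saline arrays carry no numbers, so the numbers were taken as shared labels and not as pairs.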

Other observations

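The genes with a probe lower by at least 1 unit on both WT Ang-II arrays than on each other array were looked up by chromosome after their values were seen. Of the 37 such genes outside the make-up lists, 9 lie on chromosome 9 (24.3%), which holds 5.84% of the genes measured. These are Me1, Rpl29, Nnmt, Trex1, Fez1, Atp2c1, Wdr82, Srpr and Pik3r4. Of the 39 genes that stood as far above all other arrays, 3 lie there (7.69%). These higher genes had a larger share elsewhere, with 7 on chromosome 5 (17.9%), which holds 6.69% of the genes measured. Atp2c1 and Pik3r4 have 0 protein-coding genes between them in the RefSeq order, Pik3r4 and Wdr82 have 4, and Wdr82 and Rpl29 have 6. On other chromosomes Rassf8 and Sspn have 1 between them, Cetn4 and Nudt6 have 2, and Fbxo40 and Slc15a2 have 4. Both counts describe genes picked for their pattern, and no test was made. Rassf8 did not pass (adjusted p = 0.0552), and several others, such as Fez1 and Srpr, stayed above background on the WT Ang-II arrays. The labels give all mice 1 background, and whether the sequences under these probes were the same in all groups, on which the reading of these falls as transcript levels depends, was not tested.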
